A study of Mus musculus with 12 samples.

Results

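The genes described here are 47 of the 78334 genes in a table of RNA-seq read counts from the left ventricle of 12 mice. They are grouped by what their products do, and were chosen with earlier results of these data known: 31 act in mitosis and 16 in S phase, when DNA is copied, and the 2 sets are reported apart. All 47 were found by symbol and all 47 had enough reads to be tested. The mice form 3 groups of 4. Sham vehicle mice had a control operation and ate normal chow. UNX/DOCA vehicle mice had an operation that the labels describe as inducing diastolic dysfunction, a heart that fills poorly, and ate normal chow. The sample titles name this UNX/DOCA, and surgery cannot be told apart here from any other part of it. The third group, UNX/DOCA ITF2357, was operated on likewise and ate chow containing ITF2357 (givinostat), an inhibitor of histone deacetylases, for 4 weeks, beginning 4 weeks after surgery. Strain, sex and age were not among the labels, and no Sham mice on ITF2357 chow are among the 12, so the drug is seen only in UNX/DOCA animals. Each library came from about 10 mg of whole left ventricle of 1 animal.

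A dividing cell first copies its DNA and then separates the copies. In S phase the MCM ring opens the double helix, the clamp Pcna holds the polymerases on the template, and ribonucleotide reductase and thymidylate synthase supply the building blocks. In mitosis the kinase Cdk1 with its B-type cyclins starts chromosome condensation and spindle assembly, kinetochores attach chromosomes to the spindle, the anaphase-promoting complex triggers separation, and a contractile ring divides the cell. Adult cardiomyocytes rarely divide, so in an adult heart such transcripts are generally attributed to endothelial cells, fibroblasts and leukocytes, although bulk tissue does not show which cell holds a transcript. Many replication genes are driven by E2F factors early in the cycle. Mitosis genes come on later, through a CHR element (cell cycle genes homology region) and CCAAT boxes in their promoters.

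Promoters are shown first because the members were chosen as genes of 2 cell cycle phases, which are known to use different promoter elements. RefSeq promoter windows (GRCm38.p6, 250 bases before to 50 after each start) were matched to 41 of the 47 genes, 27 mitosis and 14 replication. Not matched were Mcm4, Tpx2, Kif20a, Ccne2, Aurkb and Ccna2. Both strands were searched for the CHR letters TTTGAA, the CCAAT box letters CCAAT and the E2F letters TTTNNCGC. Below are the 200 bases before the start of 6 genes, 5' to 3' on the gene's own strand. Capitals mark these letters and the second CHR spelling TTTAAA, and in Ube2c 2 opposed CCAAT boxes overlap as CCAATTGG. Ccnb2, Top2a and Ube2c are mitosis genes that fell with ITF2357, Cdk1 carries both a CHR and an E2F match, and Uhrf1 (the first of 2 listed starts) and Pcna are replication genes with and without an E2F match.
Ccnb2: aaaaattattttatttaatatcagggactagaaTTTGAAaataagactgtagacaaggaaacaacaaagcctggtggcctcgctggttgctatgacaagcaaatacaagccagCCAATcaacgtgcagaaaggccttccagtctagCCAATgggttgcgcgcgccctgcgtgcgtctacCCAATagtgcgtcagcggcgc
Top2a: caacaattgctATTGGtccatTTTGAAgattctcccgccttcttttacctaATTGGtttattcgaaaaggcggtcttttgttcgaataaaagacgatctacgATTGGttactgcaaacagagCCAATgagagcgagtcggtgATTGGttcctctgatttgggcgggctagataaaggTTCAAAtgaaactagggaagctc
Ube2c: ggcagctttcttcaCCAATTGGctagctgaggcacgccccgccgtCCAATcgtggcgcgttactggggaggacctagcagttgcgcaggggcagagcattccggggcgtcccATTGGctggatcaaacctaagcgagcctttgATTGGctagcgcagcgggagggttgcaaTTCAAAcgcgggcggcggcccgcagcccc
Cdk1: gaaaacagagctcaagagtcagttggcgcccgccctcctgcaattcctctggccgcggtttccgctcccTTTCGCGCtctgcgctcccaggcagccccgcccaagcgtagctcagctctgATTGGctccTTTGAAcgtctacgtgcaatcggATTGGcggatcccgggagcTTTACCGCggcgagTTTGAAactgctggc
Uhrf1: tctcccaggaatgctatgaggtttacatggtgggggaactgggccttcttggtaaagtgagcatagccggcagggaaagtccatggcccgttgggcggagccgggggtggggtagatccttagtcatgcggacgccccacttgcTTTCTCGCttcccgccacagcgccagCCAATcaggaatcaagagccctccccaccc
Pcna: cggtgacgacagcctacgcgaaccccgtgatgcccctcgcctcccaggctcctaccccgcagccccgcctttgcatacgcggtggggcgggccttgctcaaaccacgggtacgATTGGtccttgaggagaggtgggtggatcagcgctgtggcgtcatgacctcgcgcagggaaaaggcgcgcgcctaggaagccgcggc
These lie at chr9:70421555-70421754 (minus strand), chr11:99024190-99024389 (minus strand), chr2:164769729-164769928 (plus strand), chr10:69352913-69353112 (minus strand), chr17:56303137-56303336 (plus strand) and chr2:132253181-132253380 (minus strand).

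Within the 150 bases from 100 before to 50 after the start, TTTGAA was present in 21 of 27 mitosis promoters (77.8%) and in 1 of 14 replication promoters (7.14%), that of Mcm2. Among 11150 tested genes with a promoter the share was 5.83%, and among all 27025 genes in the RefSeq table it was 9.23%. TTTNNCGC was present in 2 of 27 mitosis promoters (7.41%), those of Cdk1 and Kif15. It was present in 6 of 14 replication promoters (42.9%), those of Cdt1, Mcm3, Mcm6, Mcm7, Tyms and Uhrf1, against 5.1% of tested genes. CCAAT was common to both sets, in 18 mitosis promoters (66.7%) and 8 replication promoters (57.1%), against 28.6% of tested genes. Ccnb2 and Cenpf have a TTTGAA just after the start, outside the printed stretch. Bub1, which fell with ITF2357, and Birc5, which did not pass the test, have no TTTGAA in the window. These are letter matches and not sites shown to be bound.

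Levels were low, and are given as CPM, read counts relative to library size, after TMM scaling for library composition. Libraries held 23354045 to 34908810 counts, and 1 CPM was 24.1 to 35.8 reads. Per kilobase of exon in Sham vehicle, Pcna was the highest of the 47 at 6.19 CPM per kb, followed by Mcm4 at 2.36, Mcm3 at 2.08, Mcm7 at 1.90 and Rrm1 at 1.57. The highest mitosis genes were Cdc20 at 0.679, Ube2c at 0.675 and Mki67 at 0.574 CPM per kb, and the lowest was Kif15 at 0.0572. The precision of the mitosis genes is therefore limited by their reads. With ITF2357, Ccnb2 had 4 to 8 reads per library, Bub1 2 to 4 and Ccnb1 0 to 6. The filter asked for about 10 reads in at least 4 libraries. All 16 replication genes reached it in every group, but only 9 of the 31 mitosis genes (Mki67, Cdc20, Ube2c, Cenpf, Nusap1, Kif20a, Kif23, Prc1 and Anln) reached it in all 4 ITF2357 libraries. The other 22 entered through their levels in vehicle mice, so counts and medians over the mitosis set are descriptions.

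With ITF2357 the mitosis genes were lower as a set than in UNX/DOCA vehicle. Their summed level was 33.3, 63.8, 29.3 and 48.7 CPM in UNX/DOCA vehicle replicates 1 to 4 (43.8 ± 15.8, SD, n = 4) and 17.4, 24.1, 19.97 and 26.1 CPM in UNX/DOCA ITF2357 (21.9 ± 3.93, SD, n = 4), 2.0-fold lower. In Sham vehicle it was 46.7, 44.7, 40.1 and 39.5 CPM (42.8 ± 3.51, SD, n = 4). All 4 ITF2357 libraries lay below all 8 vehicle libraries. The largest contributor in ITF2357 libraries was Cenpf, which did not follow the others. Without Cenpf the sums averaged 35.9 CPM in Sham vehicle, 39.3 CPM in UNX/DOCA vehicle and 16.7 with the drug, which was 2.36-fold lower than in UNX/DOCA vehicle and 2.15-fold lower than in Sham vehicle. In bulk tissue fewer cycling cells and less of these RNAs per cell cannot be told apart. The plot of CPM by library shows the sums and 6 genes.

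**Figure D1:**
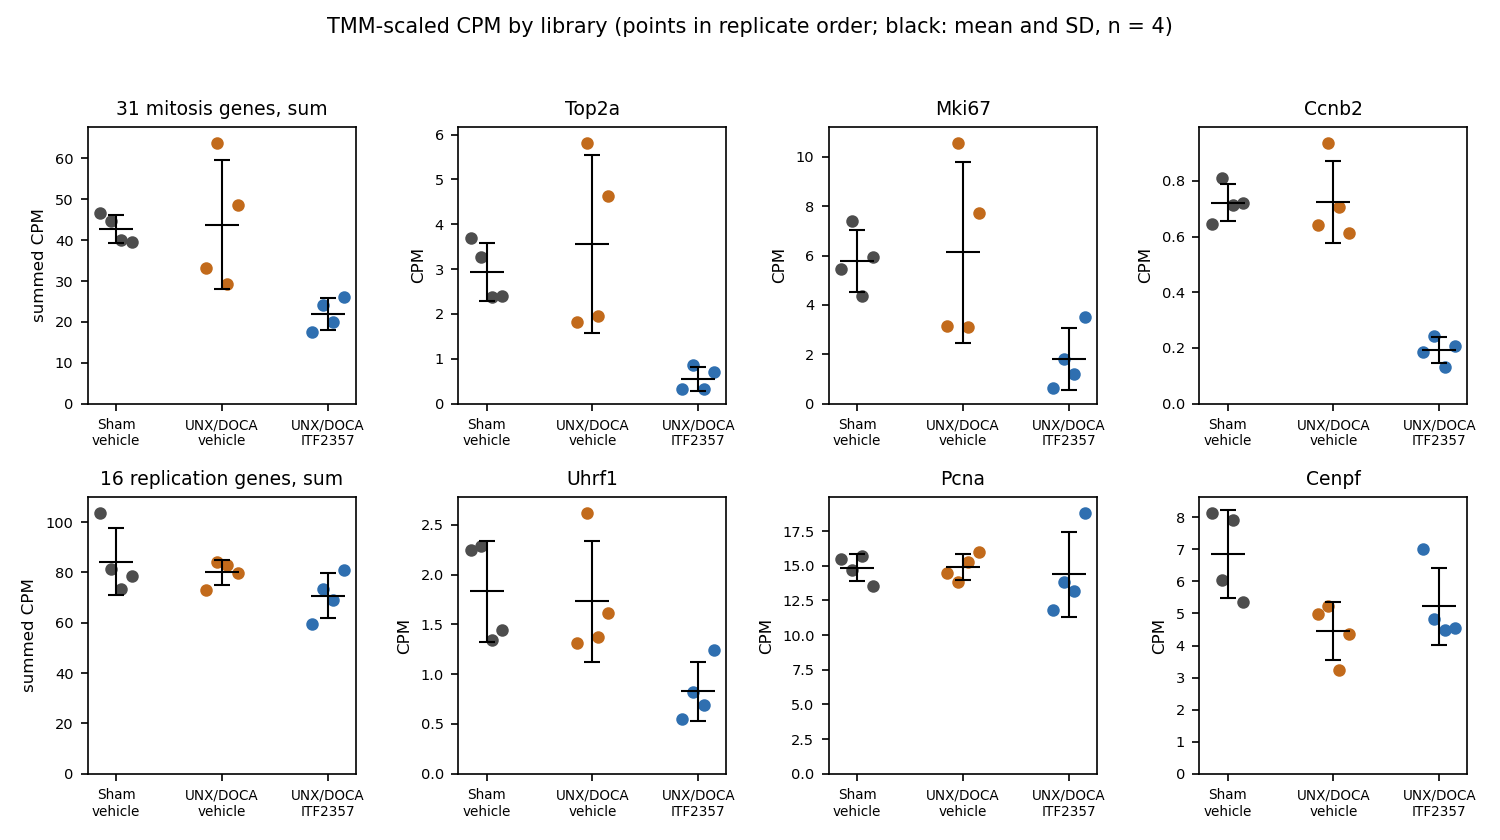
TMM-scaled CPM on linear axes from 0 for the summed mitosis genes, the summed replication genes and 6 single genes, with 1 point per library and the mean and SD of each group (n = 4). The 4 ITF2357 libraries lie between 17.4 and 26.1 CPM in the mitosis sum, under all vehicle libraries, while in the replication sum and Pcna the groups overlap, and in Cenpf the ITF2357 libraries overlap with both vehicle groups.

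By edgeR's quasi-likelihood test with Benjamini-Hochberg adjustment over 16981 genes, 6 of the 31 mitosis genes fell with ITF2357 against UNX/DOCA vehicle and 0 rose. They were Top2a, Ccnb2, Bub1, Ube2c, Spag5 and Iqgap3. Of these only Ube2c reached the read filter in all 4 ITF2357 libraries, and the others were tested because of their levels in vehicle mice. Over all genes tested 0.442% were called lower and 0.459% higher in this comparison. At an unadjusted p under 0.05, 23 of the 31 were lower, against 9.8% of all genes. Log2 fold changes were below 0 for 30 of 31, against 50.2% of all genes, and the median was -1.40, against -0.0012 over all genes. In 14 of the 31 all ITF2357 libraries lay below all UNX/DOCA vehicle libraries by CPM, against 4.36% of all genes. In some of these, as in Nuf2, the margin was small. DESeq2 called 16 of the 31 lower and 3.11% of all genes, and limma-voom called 13 and 0.695%.

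The number of mitosis genes called rested on the libraries included. It was 0 without UNX/DOCA ITF2357 replicate 1, 1 without UNX/DOCA ITF2357 replicate 3, UNX/DOCA ITF2357 replicate 4 or UNX/DOCA vehicle replicate 4, 2 without Sham vehicle replicate 2, 3 or 4, and 3 without Sham vehicle replicate 1. It was also 0 in a fit of only the 8 libraries compared and 0 without UNX/DOCA vehicle replicates 3 and 4, and it was 3 with a filter of 1 CPM in 4 libraries. The median stayed between -1.60 and -1.14 whichever library was left out. Ccnb2 was called in 19 of 22 fits that gave it a value, Top2a in 17 of 23, Iqgap3 in 12 of 23, Spag5 in 11 of 22, Ube2c in 10 of 23 and Bub1 in 8 of 21.

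Top2a encodes topoisomerase II alpha, which untangles sister chromatids, and Mki67 encodes Ki-67, a coat protein of mitotic chromosomes used as a proliferation marker. Top2a was at 1.82, 5.82, 1.95 and 4.64 CPM in UNX/DOCA vehicle and at 0.333, 0.850, 0.328 and 0.704 CPM in UNX/DOCA ITF2357. The groups did not overlap, and Top2a fell by 2.67 ± 0.44 on the log2 scale (SE, adjusted p = 0.0204), with 9 to 28 reads per ITF2357 library against 47 to 180. Mki67 was at 3.14, 10.6, 3.12 and 7.73 CPM in UNX/DOCA vehicle and at 0.629, 1.82, 1.21 and 3.52 CPM with ITF2357. The lowest vehicle library, at 3.12, lay under the highest ITF2357 library, and Mki67 did not pass the test (log2 fold change -1.79 ± 0.49, SE, adjusted p = 0.0977). In both genes UNX/DOCA vehicle replicates 2 and 4 were high and replicates 1 and 3 low.

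Of the 6 mitotic kinases and cyclins 1 fell. Ccnb2, cyclin B2, was at 0.641, 0.937, 0.706 and 0.611 CPM in UNX/DOCA vehicle and at 0.185, 0.243, 0.131 and 0.207 CPM with ITF2357. Its groups were well separated and the vehicle libraries were more alike than for Top2a, and it fell by 1.90 ± 0.27 (SE, log2, adjusted p = 0.0110). Ccnb1, cyclin B1, had the lowest log2 fold change of the 47 but the widest error. It was at 0.337, 1.07, 0.416 and 0.827 CPM in UNX/DOCA vehicle and at 0, 0.182, 0.164 and 0 CPM with ITF2357 (-2.77 ± 0.68, SE, adjusted p = 0.0730). Cdk1, the kinase that B-type cyclins activate, was at 1.15, 1.87, 0.873 and 1.40 CPM and with the drug at 0.148, 0.516, 0.328 and 0.704 CPM. Neither Ccnb1 nor Cdk1 overlapped between these groups, and Cdk1 did not pass either (-1.65 ± 0.37, SE, adjusted p = 0.0581). Ccna2, cyclin A2, which acts from S phase into mitosis, had -1.50 ± 0.39 (SE, log2, adjusted p = 0.0807). Plk1 and Aurka, kinases of centrosome maturation and spindle assembly, had smaller values, -0.58 ± 0.43 and -0.40 ± 0.34 (SE, log2), with overlapping groups. Plk1 was at 1.12 CPM in UNX/DOCA ITF2357 replicate 2 and at 0.333 to 0.393 in the other ITF2357 libraries.

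The chromosomal passenger complex corrects faulty attachments of chromosomes to the spindle. None of its 3 members passed the test in edgeR, although all 3 were lower at an unadjusted p under 0.05. Aurkb, its kinase, was at 0.405, 0.776, 0.291 and 0.791 CPM in UNX/DOCA vehicle and at 0.111, 0.273, 0.131 and 0.249 CPM with ITF2357 (log2 fold change -1.55 ± 0.40, SE, adjusted p = 0.0772). Birc5 (survivin) had 0 reads in UNX/DOCA ITF2357 replicate 3 and 4 or 5 in the others, against 7 to 32 in UNX/DOCA vehicle (-2.28 ± 0.55, SE, adjusted p = 0.0681). Cdca8 (borealin) had -1.01 ± 0.41 (SE, log2).

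Among the spindle checkpoint and anaphase-promoting complex genes, Bub1 and Ube2c fell. Bub1, a checkpoint kinase at kinetochores, was at 0.169, 0.776, 0.457 and 0.719 CPM in UNX/DOCA vehicle and at 0.111, 0.121, 0.0656 and 0.0829 CPM with ITF2357. It fell by 2.42 ± 0.49 (SE, log2, adjusted p = 0.0434), on 2 to 4 reads per ITF2357 library. Ube2c, the ubiquitin-conjugating enzyme of the anaphase-promoting complex, rested on more reads, 15 to 27 with ITF2357 and 29 to 71 in UNX/DOCA vehicle. Ube2c was at 1.59, 2.29, 1.21 and 1.798 CPM in UNX/DOCA vehicle and at 0.555, 0.820, 0.820 and 0.911 CPM with ITF2357, without overlap, and fell by 1.15 ± 0.24 (SE, log2, adjusted p = 0.0478). The annotation has 22.8% of its exon bases shared with Tnnc2 on the opposite strand, and Tnnc2 had 0 reads in all 12 libraries. Bub1b, the checkpoint pseudokinase BubR1, and Cdc20, the activator of the anaphase-promoting complex, did not pass (-1.59 ± 0.55 and -0.69 ± 0.24, SE, log2).

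None of the 4 kinetochore genes passed in edgeR. Ndc80 and Nuf2, partners in the microtubule-binding Ndc80 complex, had similar values (-1.59 ± 0.46 and -1.81 ± 0.54, SE, log2). By CPM neither overlapped between the groups. For Nuf2 the highest ITF2357 library, at 0.331 CPM on 8 reads, was nearly level with the lowest UNX/DOCA vehicle library, at 0.332 CPM on 8 reads. The motor Cenpe had -0.83 ± 0.42 (SE, log2). Cenpf, a large coiled-coil protein of the outer kinetochore, was the exception in the whole mitosis set. Cenpf was at 4.99, 5.24, 3.24 and 4.35 CPM in UNX/DOCA vehicle and at 7.02, 4.83, 4.49 and 4.56 CPM with ITF2357. The groups overlapped, UNX/DOCA ITF2357 replicate 1 was the highest of its group, and the log2 fold change was 0.23 ± 0.20 (SE, adjusted p = 0.583). In the same library Top2a, Mki67 and Cdk1 were at or near their lowest.

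Of the 6 spindle motors and assembly factors Spag5 fell. Spag5 (astrin), which stabilises kinetochore fibres, was at 0.607, 1.52, 0.956 and 0.935 CPM in UNX/DOCA vehicle and at 0.185, 0.364, 0.262 and 0.331 CPM with ITF2357. The groups did not overlap and it fell by 1.796 ± 0.33 (SE, log2, adjusted p = 0.0349). Hmmr, a spindle-associated protein and hyaluronan receptor, was at 0.472, 0.937, 0.166 and 0.827 CPM in UNX/DOCA vehicle and at 0.185, 0.152, 0.0656 and 0.124 CPM with ITF2357. UNX/DOCA vehicle replicate 3 lay under the highest ITF2357 library, and Hmmr did not pass (-2.18 ± 0.49, SE, log2, adjusted p = 0.0584). The motor Kif11, which pushes spindle poles apart, had -1.40 ± 0.34 (SE, adjusted p = 0.0704), and Kif15, Tpx2 and Nusap1 lay between -1.11 and -0.42 on the log2 scale.

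The 6 cytokinesis genes had the smallest median of the mitosis roles, -0.54 on the log2 scale, and 1 of them fell. Iqgap3, an actin-binding scaffold, was at 0.607, 1.52, 1.12 and 1.22 CPM in UNX/DOCA vehicle and at 0.111, 0.456, 0.262 and 0.249 CPM with ITF2357. It did not overlap and fell by 2.01 ± 0.38 (SE, log2, adjusted p = 0.0364). Anln (anillin), the scaffold of the contractile ring, had -1.16 ± 0.41 (SE, adjusted p = 0.161). Prc1, Kif20a, Kif23 and Ect2, which organise the central spindle and place the ring, lay between -0.54 and -0.40 with overlapping groups. Kif20a shares 29.3% of its exon bases with Cdc23 and Prc1 11.1% with Rccd1, each on the opposite strand. Both partners had more reads per library than the member, 616 to 1105 for Cdc23 and 30 to 83 for Kif20a. Whether the counting used strand is not stated, so reads of such pairs cannot be told apart. Cdc23 had 0.05 ± 0.09 and Rccd1 -0.17 ± 0.15 (SE, log2), and Exosc9, which shares 12.5% of the exon bases of Ccna2, had -0.10 ± 0.10.

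**Figure D2:**
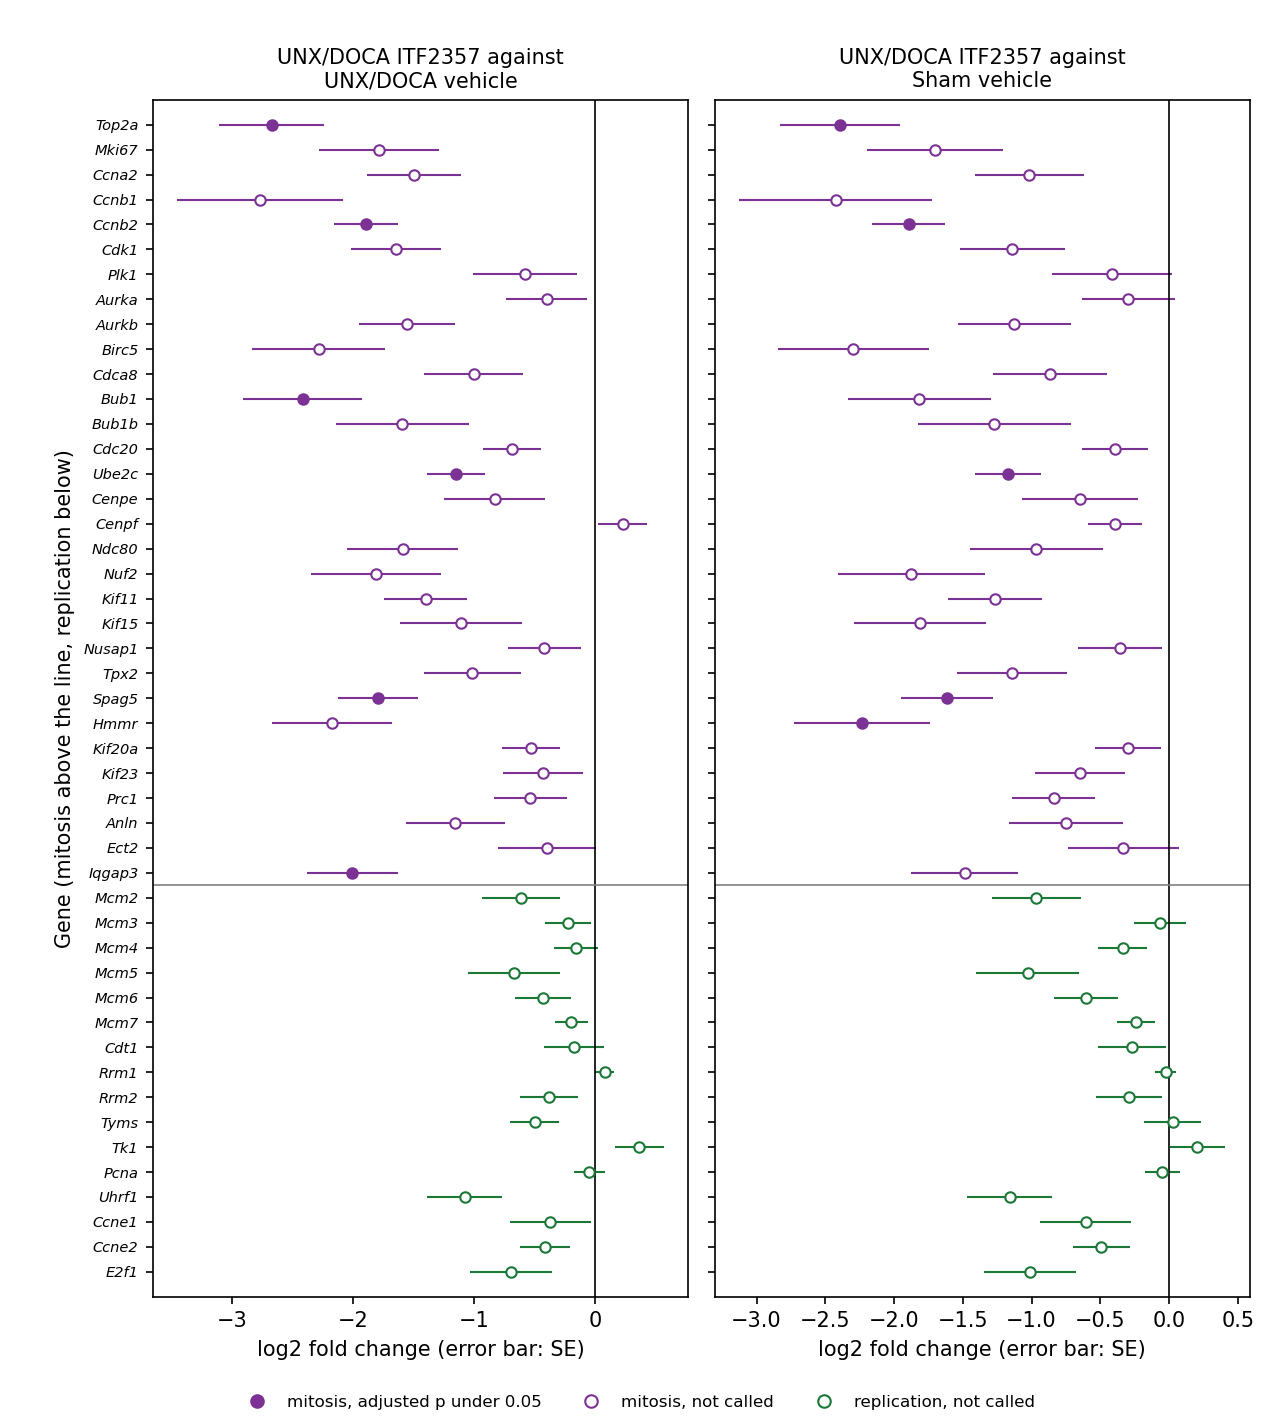
Log2 fold changes with standard errors of the 31 mitosis and 16 replication genes for UNX/DOCA ITF2357 against UNX/DOCA vehicle (left) and against Sham vehicle (right), from the fit of all 12 libraries. Filled points are the 6 and 5 mitosis genes with an adjusted p under 0.05, and points right of 0 on the left are Cenpf, Rrm1 and Tk1.

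Against Sham vehicle the mitosis genes were lower with ITF2357 too, although the mice differ in UNX/DOCA as well as in drug. The same ITF2357 libraries enter both comparisons, so the second is not an independent repeat. Called lower were 5 of 31 (Top2a, Ccnb2, Ube2c, Spag5 and Hmmr), against 0.842% of all genes, 0 were called higher, against 0.913%, and 19 were lower at an unadjusted p under 0.05, against 9.39%. Among the 5 called, again only Ube2c reached the read filter in all 4 ITF2357 libraries. All 31 log2 fold changes were below 0, against 47.7% of all genes, with a median of -1.14 against 0.01 over all genes. In 19 of 31 the groups did not overlap, against 6.39%. DESeq2 called 10 and limma-voom 15 of the 31, against 3.46% and 4.25% of all genes. In 13 of 31 all ITF2357 libraries lay below all 8 vehicle libraries, against 1.73% of all genes.

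The Sham vehicle libraries spread less than the UNX/DOCA vehicle libraries in the mitosis sum, with the SDs of 3.51 and 15.8 CPM given above. Top2a was at 3.69, 3.27, 2.37 and 2.40 CPM in Sham vehicle, above all ITF2357 libraries, and was lower with the drug by a log2 fold change of -2.39 ± 0.44 (SE, adjusted p = 0.0269). Ccnb2 was at 0.646, 0.810, 0.712 and 0.721 CPM (-1.89 ± 0.27, SE, adjusted p = 0.00988). This was the steadiest call of the set, with an adjusted p of at most 0.0380 in all 22 fits that gave Ccnb2 a value. The filter of 1 CPM in 4 libraries left Ccnb2 out. The annotation names pseudogenes of Ccnb2, Ccnb1, Pcna and Tyms, and whether reads were shared with them was not tested. Hmmr was at 0.532, 0.643, 0.831 and 0.521 CPM (-2.23 ± 0.49, SE, adjusted p = 0.0436). Spag5 and Ube2c had -1.62 ± 0.34 and -1.17 ± 0.24 (SE, adjusted p = 0.0372 and 0.0366). Bub1 (-1.82 ± 0.52, SE, adjusted p = 0.0862), Iqgap3 (-1.49 ± 0.39, SE, adjusted p = 0.0655), Birc5 (-2.30 ± 0.55, SE, adjusted p = 0.0538) and Mki67 (-1.70 ± 0.49, SE, adjusted p = 0.0909) did not pass, while Mki67 at 4.35 to 7.40 CPM in Sham vehicle did not overlap with the drug group. The count was 1 without Sham vehicle replicate 1, 2 or 4 or UNX/DOCA ITF2357 replicate 3 or 4. It was 2 without Sham vehicle replicate 3, UNX/DOCA vehicle replicate 4 or UNX/DOCA ITF2357 replicate 1 or 2, and 8 without UNX/DOCA vehicle replicate 3.

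UNX/DOCA without ITF2357 did not move the mitosis genes in a detectable way. Between UNX/DOCA vehicle and Sham vehicle 0 of 31 were called by edgeR, as were 0% of all genes, and DESeq2 and limma-voom also called 0 of 31. Over all genes DESeq2 called 2.38% higher and 1.11% lower, and limma-voom 1.91% and 1.16%. At an unadjusted p under 0.05, 1 of 31 passed, against 15.9% of all genes. That was Cenpf, at 8.14, 6.03, 7.91 and 5.37 CPM in Sham vehicle, above all UNX/DOCA vehicle libraries (-0.62 ± 0.20, SE, log2, adjusted p = 0.182), a separation seen in this direction in 4.36% of all genes. Kif15, Iqgap3 and Cdk1 had -0.70 ± 0.43, 0.52 ± 0.34 and 0.51 ± 0.34 (SE, log2). The median log2 fold change was 0.14, and 22 of 31 were above 0, against 51.1% of all genes. The spread among UNX/DOCA vehicle libraries limits this comparison. Replicate 2 was the highest of all 12 libraries in 22 of the 31 genes. The log2 fold change of Top2a was 0.28 ± 0.38 and that of Mki67 0.09 ± 0.46 (SE). Without UNX/DOCA vehicle replicate 2 both turned below 0 (-0.071 and -0.32), and the median over the 31 ran from -0.11 to 0.28 with each library left out.

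**Figure D3:**
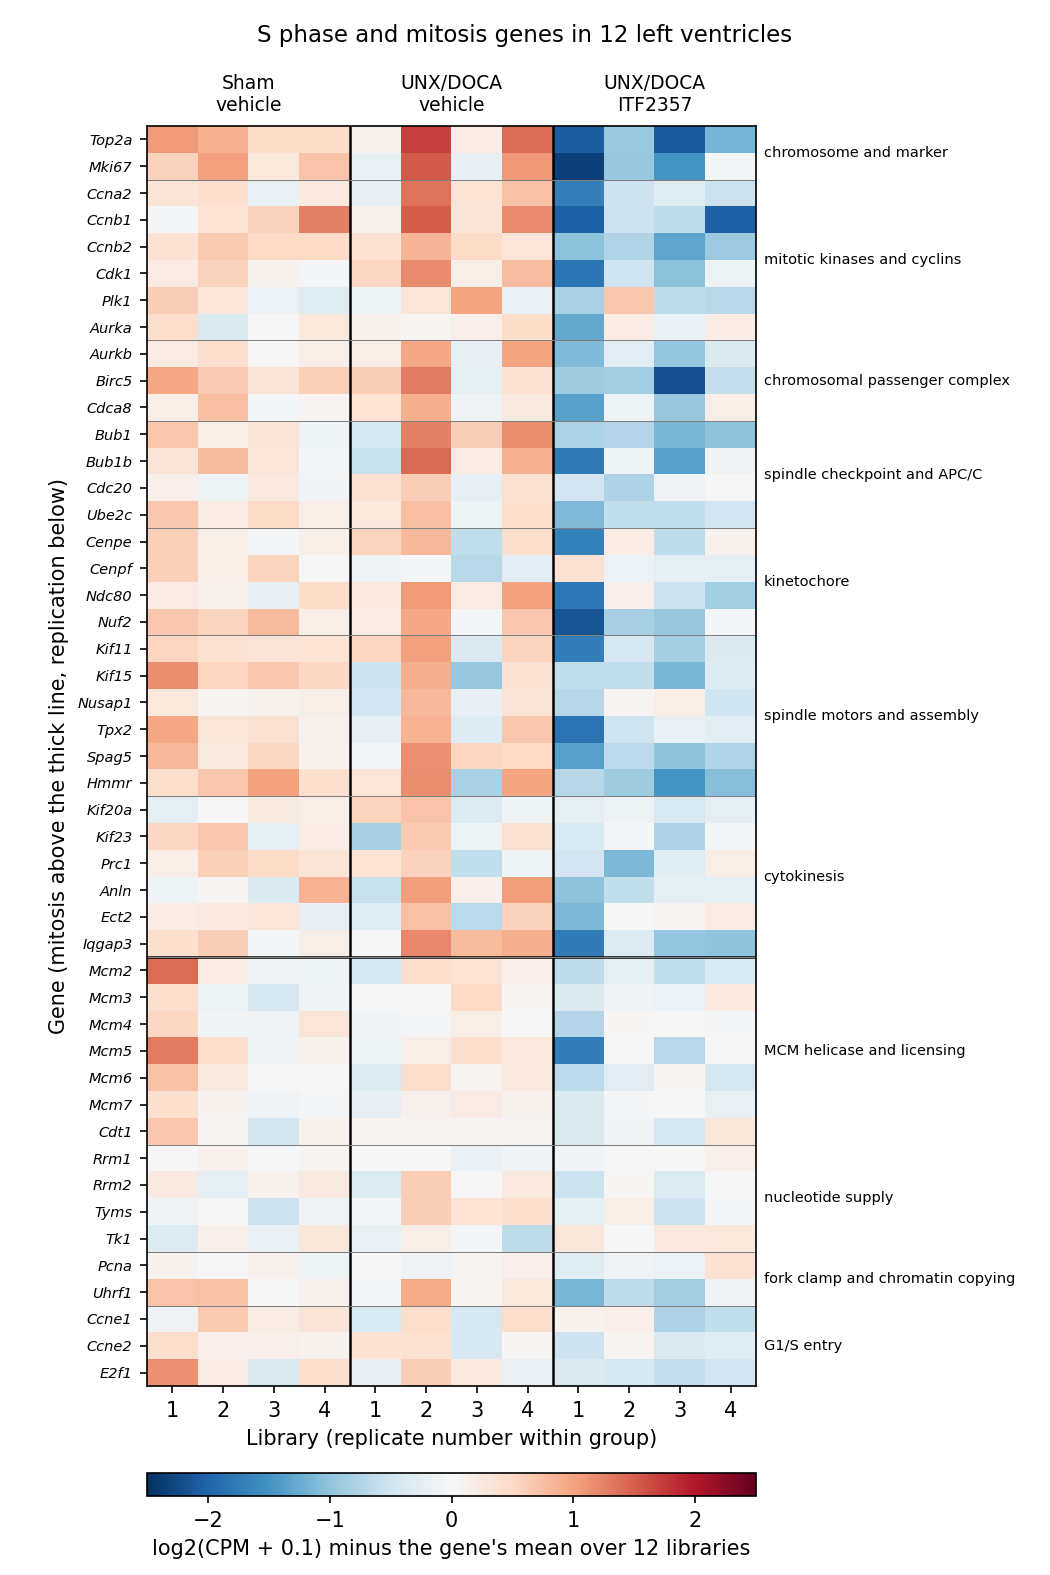
Colour shows log2(CPM + 0.1) minus each gene's mean over the 12 libraries, with genes in rows by role and libraries in columns by group and replicate. UNX/DOCA vehicle replicate 2 is the highest library in 22 of 31 mitosis genes, UNX/DOCA ITF2357 replicate 1 is the lowest in 20 of 31, and Sham vehicle replicate 1 is the highest in 8 of 16 replication genes.

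No replication gene passed the edgeR test in any comparison. Their summed level was 104, 81.2, 73.4 and 78.7 CPM in Sham vehicle (84.2 ± 13.3, SD, n = 4). It was 72.9, 84.2, 83.0 and 79.8 CPM in UNX/DOCA vehicle (80.0 ± 5.03, SD, n = 4) and 59.4, 73.5, 69.2 and 80.7 CPM in UNX/DOCA ITF2357 (70.7 ± 8.92, SD, n = 4), and the groups overlapped. By edgeR 0 of 16 were called in each of the 3 comparisons. Against UNX/DOCA vehicle, Tyms and Uhrf1 were lower with ITF2357 at an unadjusted p under 0.05, DESeq2 called Uhrf1 and limma-voom called 0, where the shares of all genes lower were 9.8%, 3.11% and 0.695%. Against Sham vehicle 6 were lower at an unadjusted p under 0.05 (Mcm2, Mcm5, Mcm6, Uhrf1, Ccne2 and E2f1), DESeq2 called Mcm2 and Uhrf1 and limma-voom called Uhrf1, where the shares were 9.39%, 3.46% and 4.25%. The median log2 fold changes were -0.38 and -0.31, with 14 of 16 below 0 in each, against 50.2% and 47.7% of all genes. Whether the mitosis and replication sets differed from each other was not tested.

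Among the MCM helicase subunits and the licensing factor Cdt1, the level in Sham vehicle replicate 1 stood out. Mcm2 was at 13.3, 5.67, 4.71 and 4.61 CPM in Sham vehicle, at 3.68, 6.75, 6.36 and 5.43 CPM in UNX/DOCA vehicle and at 3.18, 4.28, 3.21 and 3.81 CPM with ITF2357. All ITF2357 libraries were under the Sham vehicle libraries, but not under all UNX/DOCA vehicle libraries, and the log2 fold changes were -0.96 ± 0.32 (SE, adjusted p = 0.127) and -0.61 ± 0.33 (SE, adjusted p = 0.332). Mcm5 was at 7.07, 3.799, 2.65 and 3.00 CPM in Sham vehicle, 2.60, 3.17, 3.82 and 3.34 CPM in UNX/DOCA vehicle, and 0.776, 2.79, 1.70 and 2.82 with ITF2357, with overlap in both comparisons. Mcm3, Mcm4 and Mcm7 differed less, with log2 fold changes of -0.23, -0.16 and -0.20 against UNX/DOCA vehicle, and Mcm6 had -0.44 ± 0.23 (SE). UNX/DOCA vehicle against Sham vehicle, Mcm2 and Mcm5 had -0.35 and -0.36, and without Sham vehicle replicate 1 these became 0.14 and 0.022.

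Of the 4 nucleotide supply genes none passed the edgeR test. Rrm1, the large subunit of ribonucleotide reductase, was at 16.8 to 17.99 CPM in Sham vehicle, 14.9 to 16.9 CPM in UNX/DOCA vehicle and 15.97 to 18.5 with ITF2357. Rrm2, the small subunit that is made in S phase, had -0.38 ± 0.24 (SE, log2, adjusted p = 0.418) with ITF2357 against UNX/DOCA vehicle. Tyms, thymidylate synthase, was at 1.79, 1.93, 1.31 and 1.802 CPM in Sham vehicle, 1.86, 3.01, 2.45 and 2.55 CPM in UNX/DOCA vehicle and 1.63, 2.16, 1.31 and 1.86 with ITF2357. The middle group was the highest, with 3 of its 4 libraries above all others, but neither its difference from Sham vehicle (0.53 ± 0.21, SE, adjusted p = 0.248) nor that from ITF2357 (-0.50 ± 0.21, SE, adjusted p = 0.214) passed. Tk1, thymidine kinase, had 0.36 ± 0.20 (SE, adjusted p = 0.357), the highest value of the 16.

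Neither fork gene passed the edgeR test. Pcna, the sliding clamp, was at 13.6 to 15.7 CPM in Sham vehicle, 13.8 to 15.97 CPM in UNX/DOCA vehicle and 11.8 to 18.8 with ITF2357 (log2 fold change -0.05 ± 0.13 against each vehicle group, SE). Uhrf1, which brings the maintenance DNA methyltransferase to newly copied DNA, was at 2.24, 2.29, 1.35 and 1.44 CPM in Sham vehicle, 1.32, 2.62, 1.37 and 1.62 CPM in UNX/DOCA vehicle and 0.555, 0.820, 0.689 and 1.24 with ITF2357. No ITF2357 library reached a vehicle library, yet the edgeR test did not pass against UNX/DOCA vehicle (-1.08 ± 0.31, SE, adjusted p = 0.106) or Sham vehicle (-1.16 ± 0.31, SE, adjusted p = 0.0700). Of the G1/S genes, E2f1, an activator of replication genes, was at 1.86, 0.922, 0.593 and 1.08 CPM in Sham vehicle, 0.675, 1.26, 0.956 and 0.683 CPM in UNX/DOCA vehicle and 0.592, 0.577, 0.492 and 0.539 with ITF2357. The highest ITF2357 library, at 0.592 CPM on 16 reads, was level with the lowest Sham vehicle library, at 0.593 CPM on 15 reads. E2f1 did not pass against UNX/DOCA vehicle or Sham vehicle (-0.70 ± 0.34 and -1.01 ± 0.33, SE, adjusted p = 0.292 and 0.121). Ccne1 and Ccne2, the E-type cyclins that start S phase, had -0.37 ± 0.34 and -0.42 ± 0.21 (SE, log2) against UNX/DOCA vehicle, and Ccne2 shares 17.4% of its exon bases with Ints8 on the opposite strand.

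**Figure D4:**
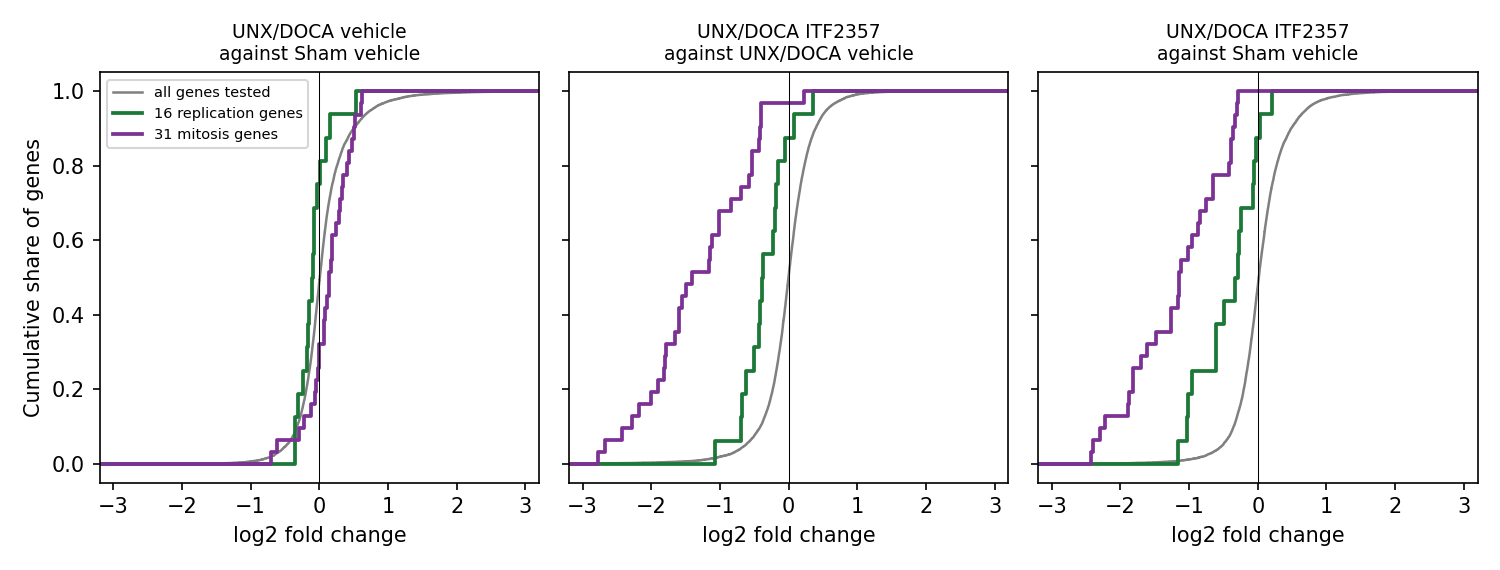
Cumulative share of genes by log2 fold change in the 3 comparisons, for all 16981 genes tested, the 16 replication genes and the 31 mitosis genes. In both comparisons with ITF2357 the mitosis curve lies left of 0, except for Cenpf against UNX/DOCA vehicle, with medians of -1.40 and -1.14. In UNX/DOCA vehicle against Sham vehicle it lies near 0 with a median of 0.14.

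Further genes of the same processes were taken from lists. Of 60 other mitosis genes 44 were tested. How many of them passed the read filter only through vehicle libraries was not counted, so their counts and median are descriptions too. Against UNX/DOCA vehicle edgeR called only Ckap2, a spindle protein, lower with ITF2357 (-2.16 ± 0.39, SE, log2, adjusted p = 0.0300), where 0.442% of all genes were called lower. At an unadjusted p under 0.05, 19 were lower and 0 higher, against 9.8% and 8.7% of all genes, and the median was -0.54. Dlgap5, which bundles kinetochore fibres, had -1.86 ± 0.43 (SE, adjusted p = 0.0605) and fell against Sham vehicle (-1.98 ± 0.42, SE, adjusted p = 0.0401), as did Ckap2 (-1.85 ± 0.39, SE, adjusted p = 0.0384). Of 44 other replication genes 42 were tested and edgeR called 0 in each comparison, with medians of -0.09 against UNX/DOCA vehicle and -0.10 against Sham vehicle. At an unadjusted p under 0.05, 3 were lower and 1 higher against UNX/DOCA vehicle and 5 were lower against Sham vehicle, where 9.39% of all genes were lower. These counts are near those shares of all genes. Between UNX/DOCA vehicle and Sham vehicle 2 were lower at that threshold, where 15.9% of all genes passed it in either direction. DESeq2 called 3 and limma-voom 4 against Sham vehicle, and both called 0 in the other 2 comparisons. Over all genes they called 3.46% and 4.25% lower against Sham vehicle. Dnmt1, the methyltransferase that Uhrf1 recruits, had -0.30 ± 0.11 (SE, adjusted p = 0.164) against UNX/DOCA vehicle, and Slbp, which binds histone mRNA, -0.32 ± 0.13.

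Regulators that switch these genes were measured as well. Of 19 E2F, RB and DREAM complex genes, Tfdp1 and Tfdp2 are partners with which E2F factors bind DNA. Tfdp1 was at 26.1 to 28.3 CPM in UNX/DOCA vehicle, 26.7 to 28.9 in Sham vehicle and 22.1 to 23.1 with ITF2357. The ITF2357 libraries lay below all vehicle libraries, as in 1.73% of all genes. Tfdp1 fell against Sham vehicle (-0.31 ± 0.06, SE, log2, adjusted p = 0.0366), where 0.842% of all genes were called lower. It did not pass against UNX/DOCA vehicle (-0.25 ± 0.06, SE, adjusted p = 0.0755). E2f4, a repressor E2F, had -0.35 ± 0.10 (SE, adjusted p = 0.112) against UNX/DOCA vehicle, and edgeR called none of the 19 in that comparison. The median log2 fold change of the 19 was -0.092 against UNX/DOCA vehicle and -0.085 against Sham vehicle. Below 0 were 13 and 11 of them, against 50.2% and 47.7% of all genes. Mybl2 was the lowest of the 19 in both, at -1.27 and -1.09. The highest were Tfdp2 against UNX/DOCA vehicle, at 0.43, and E2f8 against Sham vehicle, at 0.37. Of 13 G1 cyclins and cyclin-dependent kinase inhibitors 12 were tested and edgeR called 0 in each comparison. Against UNX/DOCA vehicle 2 were higher and 1 lower at an unadjusted p under 0.05, against 8.7% and 9.8% of all genes, DESeq2 called Ccnd1 and limma-voom 0. Ccnd1, cyclin D1, had -0.44 ± 0.13 (SE, adjusted p = 0.106) and the inhibitor Cdkn2c 0.32 ± 0.11 (SE, adjusted p = 0.145). Between UNX/DOCA vehicle and Sham vehicle the inhibitor Cdkn1c had -0.66 ± 0.18 (SE, adjusted p = 0.135). At an unadjusted p under 0.05, 3 of the list passed, near the share of 15.9% of all genes. DESeq2 and limma-voom called Cdkn1c, where they called 1.11% and 1.16% of all genes lower. In that comparison the lists spread to both sides of 0, from -0.76 for Trip13 to 0.65 for Nek2 in the other mitosis genes and from -0.66 for Cdkn1c to 0.71 for Cdkn2b in the G1 list (log2), and edgeR called none. Rfc1, Rbl2, Lin9, Ncaph and Cdk2, named for their small p, had -0.28, -0.31, -0.57, -0.63 and -0.24.

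Marker lists show what moved beside the mitosis genes. Summed over 10 markers, cardiomyocyte levels ran from 51911 to 66320 CPM in the 12 libraries, and of 5 atrial markers Myl7, Sln and Bmp10 were too low to test, while Nppa, which ventricles also make under load, was at 77.8 to 148 CPM in Sham vehicle, 222 to 325 CPM in UNX/DOCA vehicle and 213 to 829 with ITF2357. Nppa rose with ITF2357 against Sham vehicle (2.31 ± 0.40, SE, log2, adjusted p = 0.0269), and Myl4, the other atrial marker tested, had -0.80 ± 0.21 (SE, adjusted p = 0.0673). The 4 B cell markers tested were all below 0 with the drug, with a median log2 fold change of -1.96 against UNX/DOCA vehicle and -2.15 against Sham vehicle. Over 6 markers they summed to 4.60 to 5.95 CPM with ITF2357, 4.10 to 10.97 in UNX/DOCA vehicle and 5.22 to 11.9 in Sham vehicle, with overlap, and Igkc had 0 reads in all libraries. Ighm, the most abundant of them, makes up most of this sum and had -0.36 ± 0.31 (SE, log2) against UNX/DOCA vehicle. By the mean log2 level of the tested markers, relative to their mean over the 12 libraries, all 4 ITF2357 libraries (-1.30 to -0.54) lay below UNX/DOCA vehicle (-0.50 to 0.91) and Sham vehicle (0.18 to 1.05). Cd79b, a subunit of the B cell receptor, fell against UNX/DOCA vehicle (-1.78 ± 0.36, SE, log2, adjusted p = 0.0432), and Cd79b and Ms4a1 fell against Sham vehicle (-2.08 ± 0.36 and -2.74 ± 0.55, SE, adjusted p = 0.0215 and 0.0343). The UNX/DOCA vehicle library with the highest mitosis sum, replicate 2 at 63.8 CPM, had the lowest B cell sum of its group, 4.10 CPM. The part of B cells in the fall of the mitosis genes was not tested.

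Neutrophil markers were highest in another library than the mitosis genes. Over 8 markers they summed to 31.4, 15.7, 596 and 190 CPM in UNX/DOCA vehicle replicates 1 to 4 and to 5.92 to 34.3 CPM with ITF2357. With ITF2357 against UNX/DOCA vehicle, 7 of the 7 tested were lower at an unadjusted p under 0.05, edgeR called 0, DESeq2 4 and limma-voom 0, where 9.8%, 0.442%, 3.11% and 0.695% of all genes were lower by these rules. UNX/DOCA vehicle replicate 3, with the highest neutrophil sum, had a mitosis sum of 29.3 CPM, and replicate 2, with the lowest, one of 63.8 CPM. The macrophage and monocyte list was at 245, 312, 646 and 467 CPM in UNX/DOCA vehicle and 219, 318, 306 and 398 CPM with ITF2357. Endothelial markers summed to 895, 862, 954 and 912 CPM in UNX/DOCA vehicle and to 673, 1119, 672 and 875 CPM with ITF2357. With ITF2357, replicates 1 and 3, with the lower mitosis sums of 17.4 and 19.97 CPM, were also the lower in endothelial RNA. In UNX/DOCA vehicle it was otherwise. There replicate 2, with the highest mitosis sum, was the lowest in endothelial RNA, and replicate 3, with the lowest mitosis sum, was the highest. Fibroblast markers overlapped at 1528 to 2113 and 1425 to 1720 CPM. Of 6 activated fibroblast markers 5 were tested, and all 5 were below 0 with ITF2357 against UNX/DOCA vehicle, with a median log2 fold change of -0.55. Their sums were 76.2 to 135 CPM in UNX/DOCA vehicle and 50.9 to 93.2 CPM with ITF2357, with overlap, and edgeR called none, with 1 (Thbs4) at an unadjusted p under 0.05 and called by DESeq2, and none by limma-voom. In Sham vehicle the neutrophil list summed to 20.9 to 50.8 CPM, the macrophage and monocyte list to 244 to 318 and the endothelial list to 752 to 889. The fibroblast list summed to 1521 to 1787 CPM there and the activated fibroblast list to 46.1 to 90.1. Each of these ranges overlapped with that of ITF2357. The part of neutrophil, endothelial, macrophage and activated fibroblast content in the result was not tested. The share of counts on mitochondrial genes was 23.7% to 27.8% in the 12 libraries.

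**Figure D5:**
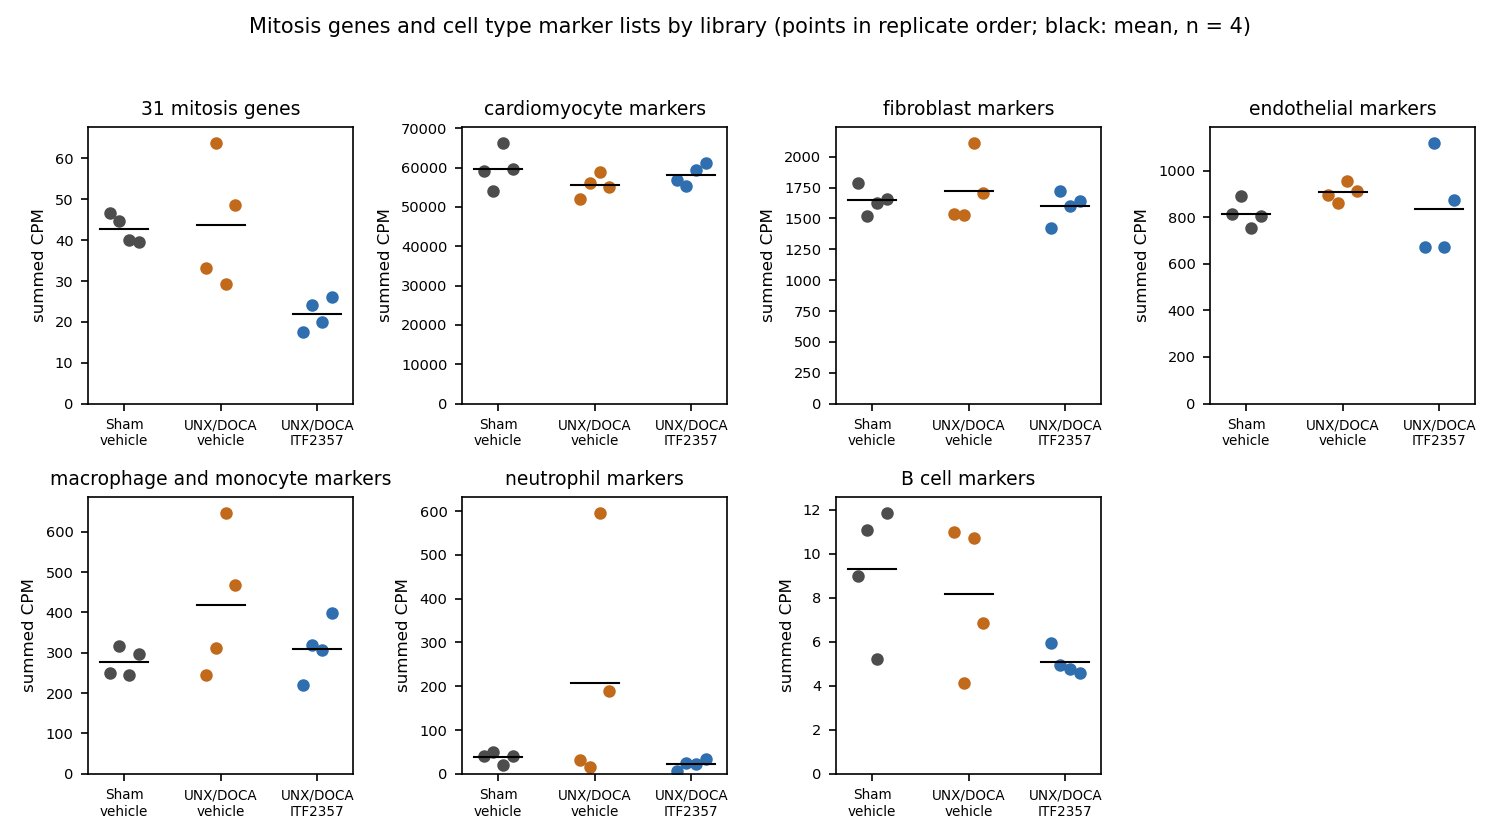
Summed CPM of the 31 mitosis genes and of 6 cell type marker lists, on linear axes from 0, with 1 point per library in replicate order and a bar at the mean of each group (n = 4). Neutrophil markers peak in UNX/DOCA vehicle replicate 3 at 596 CPM and mitosis genes in replicate 2 at 63.8 CPM, and the groups overlap in the summed B cell markers, of which Ighm is the largest part.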

How the data were processed

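Raw read counts per Ensembl gene, as the authors deposited them, were used for all 12 libraries. Per the labels, poly(A) RNA gave strand-specific libraries read as pairs of 150 bp. Per the submitters' processing notes, FastQC 0.11.9 and STAR 2.7.10b were used with the mm39 build. Nothing used here names the counter, its strand setting or the annotation.

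Gene symbols and exon lengths came from GENCODE vM21 (GRCm38), and promoters from RefSeq (GRCm38.p6). Positions were matched by symbol, not converted. edgeR 4.0.16 (filterByExpr with a minimum of 10 counts, TMM, robust quasi-likelihood fit, R 4.3.3) was fitted to all 12 libraries with a term per group, leaving 9 residual degrees of freedom. P-values were Benjamini-Hochberg adjusted over 16981 genes with a threshold of 0.05. Alternatives were other scalings and filters, DESeq2 1.42.0, limma-voom (limma 3.58.1), the 2 groups alone, a replicate block, and libraries left out.

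The labels call replicates biological, and same-numbered libraries were not paired. Groups follow the sample titles, which all name ITF2357, whereas a treatment field numbers these 4 libraries differently. The members and lists were chosen with earlier results of these data known. Named always were Mki67, Top2a, Ccnb1, Cdk1, Aurkb, Plk1, Anln, Pcna, Mcm2, Mcm5, Rrm2, Tyms, E2f1 and Ccne1. Also named were called members, the 4 of each set with the smallest p per comparison, and 2 genes per pathway list in the comparisons within UNX/DOCA and of vehicle groups, except for a few results that are not reported here. The other members named for their role were chosen after their values were seen. So were Exosc9, Cdc23, Rccd1, Tnnc2, Ints8, Nek2, Cdkn2b, Mybl2, Tfdp2, E2f8 and Thbs4.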

Additional observations from a re-analysis of the deposited data

Results flagged for a closer look

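Single libraries stood away from the other 3 of their group, by the gap to the nearest library over the group's range, in 5 of 84 groups of 4 examined, and chance gives about 1 in 20. In Sham vehicle replicate 1, Mcm2 was at 13.34 CPM and Ccne2 at 3.079 CPM, both above the other Sham libraries. In UNX/DOCA ITF2357 replicate 1, Cenpf was at 7.025 CPM, above the others, and Mcm4 at 4.437 CPM, below them. In UNX/DOCA ITF2357 replicate 2, Plk1 was at 1.124 CPM, above the others. The cause was not tested.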

How the results depend on the processing

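Results were recomputed under 22 alternatives. Of the values of named members 1120 kept direction and call, 92 lost a call, 23 gained one and 32 changed sign. Beside the edgeR values in the report, the count of all genes called in UNX/DOCA vehicle against Sham vehicle was 7 with upper-quartile scaling, 210 with no filter, 593 with DESeq2, 521 with limma-voom, 31 with the replicate block, 1 without UNX/DOCA vehicle replicates 3 and 4, and 0 to 380 with each library left out (380 without UNX/DOCA vehicle replicate 1, 6 without UNX/DOCA vehicle replicate 2, 39 without UNX/DOCA ITF2357 replicate 1 and 11 without UNX/DOCA ITF2357 replicate 2). In ITF2357 against UNX/DOCA vehicle it was 352 with no filter, 928 with DESeq2, 251 with limma-voom, 5 with the 2 groups alone, 68 with the block, 12 without both vehicle replicates and 14 to 243 with each library left out, against 153. In ITF2357 against Sham vehicle it was 1180 with DESeq2, 1506 with limma-voom, 475 with the 2 groups alone, 192 with the block, 481 without both vehicle replicates and 17 to 616 with each library left out, against 298.

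Mitosis genes called against UNX/DOCA vehicle were 13 with no filter, 3 with 1 CPM in 4 libraries, 16 with DESeq2, 13 with limma-voom, 0 with the 2 groups alone, 3 with the replicate block, 0 without both vehicle replicates and 0 to 7 with each library left out (0 without UNX/DOCA ITF2357 replicate 1). Against Sham vehicle they were 10, 2, 10 and 15 under the first 4 of these, 3 with the block and 1 to 8 with each library left out. Replication genes called were 1 with no filter and 1 with DESeq2 against UNX/DOCA vehicle, and 1 with no filter, 2 with DESeq2 and 1 with limma-voom against Sham vehicle. The replicate block ended the calls of Bub1, and of Ube2c and Spag5 in both comparisons, and that of Hmmr. Same-numbered libraries correlated between -0.19 and 0.25 over 12 pairs, 2 of them best with their own number. The cause of these differences was not tested, beyond fewer samples or genes entering a fit.

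Values that changed sign lay between -0.32 and 0.14 on the log2 scale. In UNX/DOCA vehicle against Sham vehicle, Mki67 was -0.09 with the block, Plk1 -0.066 with limma-voom and -0.064 without both vehicle replicates, and Pcna -0.017 with no filter, -0.0023 with the 2 groups alone, -0.0039 with the block and -0.069 without both vehicle replicates. With each library left out, Top2a ran from -0.071 to 0.50, Mki67 from -0.32 to 0.30, Plk1 from -0.16 to 0.36, Mcm2 from -0.51 to 0.14, Mcm5 from -0.53 to 0.022, E2f1 from -0.54 to 0.038, Rrm2 from -0.12 to 0.23 and Pcna from -0.038 to 0.030. Pcna with ITF2357 was 0.013 against UNX/DOCA vehicle without both vehicle replicates, and ran from -0.20 to 0.029 against UNX/DOCA vehicle and from -0.21 to 0.027 against Sham vehicle with each library left out. Tyms against Sham vehicle was -0.12 with limma-voom and ran from -0.10 to 0.13. With 0 to 8 reads per ITF2357 library in Ccnb1, Ccnb2 and Bub1, depth limits their fold changes.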
